A study of Mus musculus with 15 samples.

Results

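Genes of fatty acid oxidation and of the peroxisome were followed in alveolar macrophages, which patrol the airspaces of the lung and engulf what reaches them. The set was given as a list of 40 gene symbols, and a member was any probe annotated on the array platform to exactly 1 of them. Of the 40 genes 37 had a probe, 1 each, and all 37 were measured on 3 arrays or more in each group. They were 16 genes of mitochondrial oxidation, 10 enzymes of peroxisomal oxidation, 9 peroxins and 2 acyl-CoA synthetases, out of 12909 genes with a symbol in the series, of which 10811 were tested. Hadha, Pex16 and Acsl1 had no probe under their symbol and were not analysed here.

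Total RNA of each macrophage sample was hybridised on a spotted 2-colour oligonucleotide array against a common macrophage reference RNA, and 15 arrays in 3 groups of 5 were compared. The wild type group is labelled b6+/+Dox, the integrin beta6 deficient group b6-/-Dox (beta6 null), and the third group b6-/-TGFb+/+Dox, beta6 deficient mice given back TGF-b1 (beta6 null with TGFb1). All mice, wild type included, had received doxycycline, and no group of wild type mice given TGFb1 was measured. The age and strain of the mice and the promoter and cell type that drive TGFb1 are not given in the labels, nor whether the 5 arrays of a group are 5 animals, so the p-values refer to the scatter among these arrays, and part or all of it may be technical.

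In mitochondria, long fatty acids enter through the carnitine shuttle and are shortened in repeated rounds by a dehydrogenase, a hydratase, a second dehydrogenase and a thiolase, while electron transfer flavoprotein carries electrons from the first step to the respiratory chain. Peroxisomes shorten very long and branched fatty acids with their own oxidases, bifunctional enzymes and thiolases, and catalase removes the peroxide that the oxidases make. Peroxins build the organelle and import its enzymes. Alveolar macrophages take up and break down the lipids of surfactant, and PPARgamma, a nuclear receptor that binds lipids, is known as a regulator of their identity.

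The values are log ratios to the reference, centred on each array's median and read as log2, with the sample likely over the reference. Neither the base nor the direction is stated: the direction rests on the channel order and on Mmp12, macrophage elastase, known to be high in macrophages of this mouse, and with the ratio inverted every sign below would turn. The SD of the values on an array ran from 0.841 to 2.01 in wild type, from 0.916 to 2.0 in beta6 null and from 0.845 to 1.40 with TGFb1. Its median over the arrays of a group was 1.06, 1.49 and 1.07 in that order, so beta6 null was the widest group. The widest arrays, with most missing probes, were replicate 2 of wild type and replicate 1 of beta6 null. Replicates 4 and 5 of wild type and of beta6 null and replicate 5 of TGFb1 missed 742 to 1493 probes, and every other array 2259 or more. This split, uneven over the groups, was not entered in any model, and its part in the results was not tested. Of 17 alveolar macrophage markers tested, 14 had a lower mean in beta6 null than in wild type and 16 a higher mean with TGFb1 than in beta6 null, and the median of this list ran per array from -1.43 to -0.30, from -2.10 to -1.57 and from -0.63 to -0.15 in the 3 groups in that order. Of 10 monocyte and dendritic cell markers 8 had a higher mean in beta6 null than in wild type. In beta6 null their array medians ran from 0.36 to 1.76, against -0.50 to 0.13 in wild type and -0.46 to 0.63 with TGFb1. None of the 8 passed, and the 1 marker of this list that did, Ly75, was lower in beta6 null (difference -2.72). In the same comparison 1 of 9 neutrophil and 1 of 7 B cell markers passed as higher. Of 12 lung epithelium markers 1 passed as higher and 1 as lower, and 1 of 5 fibroblast and endothelium markers as lower. All 7 general macrophage markers tested had a lower mean in beta6 null than in wild type (median difference -0.66) and a higher one with TGFb1 than in beta6 null (0.64), and none passed. A ratio to a macrophage reference does not show whether a marker is present, fewer cells of a type and less RNA per cell cannot be told apart, and the part of these shifts in the results on the members was not tested. Xist, an RNA of female cells, ran from -4.14 to -2.37 in wild type, from -2.46 to 0.88 in beta6 null and from -3.48 to -2.27 with TGFb1, and the labels do not give the sex of the mice.

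Acaa1a, a peroxisomal thiolase, was the 1 member that changed between wild type and beta6 null, where it fell by 1.91 on the log2 scale. The other 36 members did not pass in this comparison, and no member passed with TGFb1 against beta6 null or against wild type. In beta6 null against wild type 22 of 37 members had a lower fitted level and 15 a higher one, with a median difference of -0.22 beside -0.05 over all 13273 features tested. Against beta6 null, the TGFb1 group had 26 members above 0 and 11 below, with a median of 0.48 beside 0.12 over all features. With TGFb1 against wild type the members' median was 0.03, beside 0.07 over all features. Without the 2 widest arrays 5 members passed as higher with TGFb1 against beta6 null, namely Acaa1a, Etfa, Eci2, Pex2 and Pex11a, and Pex11a joined Acaa1a as lower in beta6 null against wild type. The share of all features called without these arrays is not given here, so these counts were not weighed against it. Under quantile normalisation, arrays scaled to equal spread or Xist as a covariate no member passed in any of the 3 comparisons. The 3 comparisons share arrays: the beta6 null arrays enter the first 2 with opposite signs, so their opposite medians are not independent of each other.

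The test was limma's moderated test with Benjamini-Hochberg adjustment over all features at a threshold of 0.05. It called 0.949% of all features in beta6 null against wild type (0.362% higher and 0.588% lower), 0.708% with TGFb1 against beta6 null (0.580% higher and 0.128% lower) and 0% with TGFb1 against wild type. At an unadjusted p under 0.05, 1 member was higher and 8 were lower in beta6 null than in wild type, where 4.28% and 7.20% of all features were. For TGFb1 against beta6 null 12 members were higher and 0 lower, where 11.1% and 3.85% of all features were. With TGFb1 against wild type 5 were higher and 0 lower, where 4.25% and 2.03% of all features were. Members whose arrays did not overlap between groups were 1 higher and 2 lower in beta6 null against wild type (2.06% and 3.06% of all features), 9 higher and 0 lower with TGFb1 against beta6 null (6.36% and 1.91%), and 2 higher and 0 lower with TGFb1 against wild type (1.79% and 1.09%).

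**Figure D1:**
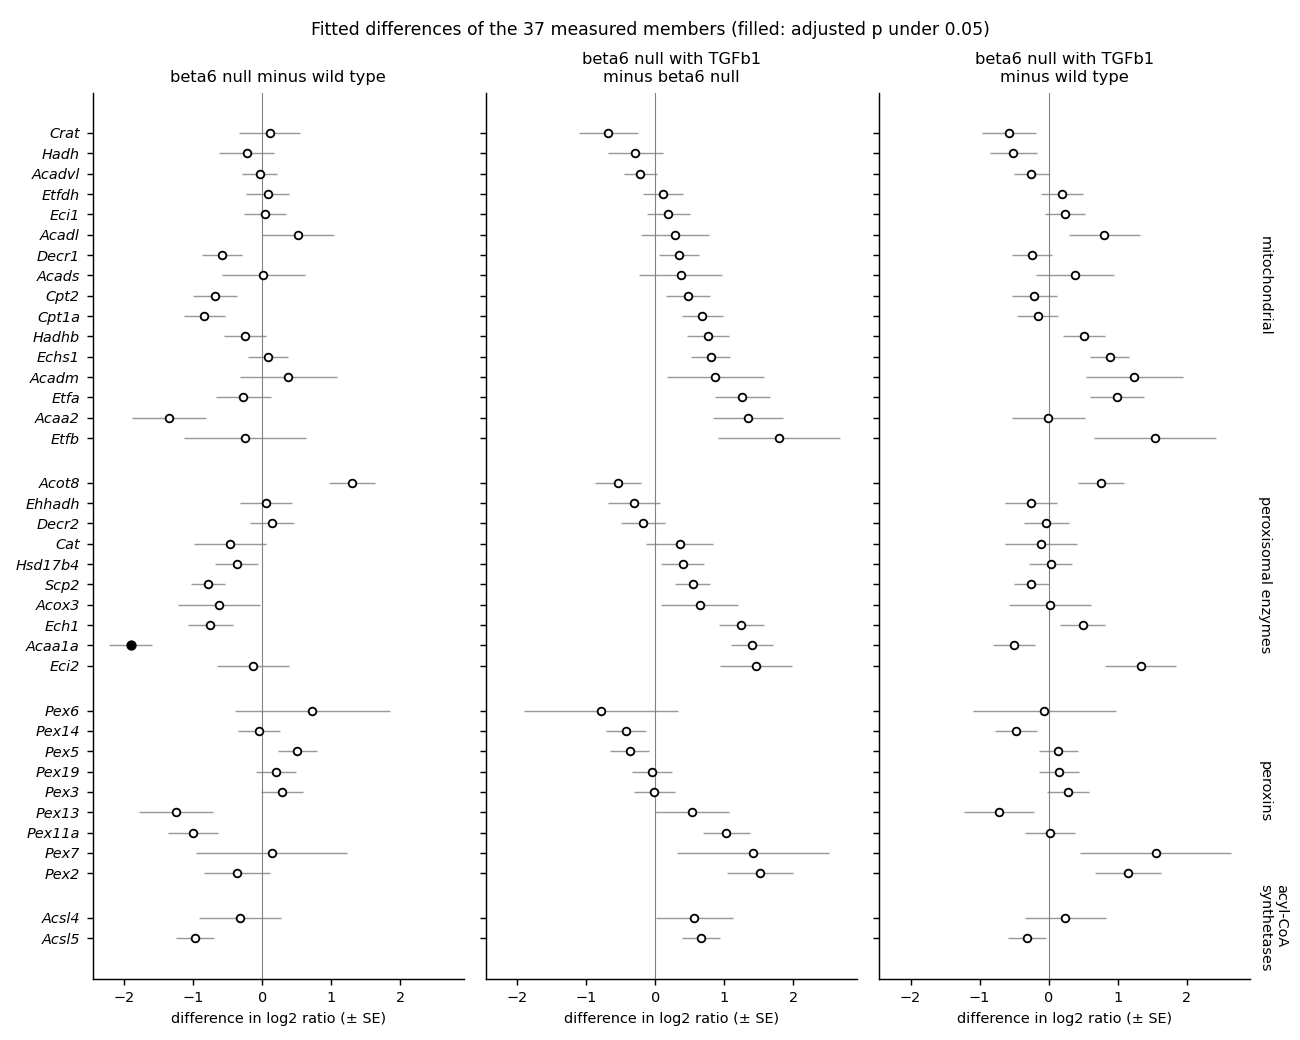
Fitted difference in log2 ratio (x axis, bars are the standard error) of each of the 37 measured members (rows, grouped as mitochondrial, peroxisomal enzymes, peroxins and acyl-CoA synthetases) in the 3 comparisons, 5 arrays a group. Filled points passed the test: the 1 filled point is Acaa1a in beta6 null against wild type, at -1.91.

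The 250 bases before the start site are given for 4 members, in RefSeq's sequences of the mouse build GRCm38.p6: Acaa1a, which changed, Acot8, whose difference was the largest in the other direction, and Cpt1a and Scp2, which are named below and hold the 6-letter core of nuclear receptor sites (the receptor core). Each runs 5′ to 3′ on the gene's own strand, and capitals mark the receptor core (AGGTCA or its reverse complement TGACCT) and the GC box (GGGCGG or CCGCCC). The PPAR element holds the core 2 times, so these motifs overlap.
Acaa1a, chr9:119341044-119341293, plus strand: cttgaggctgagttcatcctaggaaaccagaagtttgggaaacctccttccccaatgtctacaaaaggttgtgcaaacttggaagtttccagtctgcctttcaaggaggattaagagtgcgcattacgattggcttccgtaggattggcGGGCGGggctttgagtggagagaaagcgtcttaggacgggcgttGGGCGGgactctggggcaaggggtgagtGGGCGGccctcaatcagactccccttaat
Acot8, chr2:164804882-164805131, minus strand: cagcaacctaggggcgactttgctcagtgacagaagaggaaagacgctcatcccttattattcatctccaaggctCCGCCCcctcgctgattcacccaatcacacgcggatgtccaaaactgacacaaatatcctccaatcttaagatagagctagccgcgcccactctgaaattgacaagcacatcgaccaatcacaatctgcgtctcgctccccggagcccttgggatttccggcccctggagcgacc
Cpt1a, chr19:3323051-3323300, plus strand: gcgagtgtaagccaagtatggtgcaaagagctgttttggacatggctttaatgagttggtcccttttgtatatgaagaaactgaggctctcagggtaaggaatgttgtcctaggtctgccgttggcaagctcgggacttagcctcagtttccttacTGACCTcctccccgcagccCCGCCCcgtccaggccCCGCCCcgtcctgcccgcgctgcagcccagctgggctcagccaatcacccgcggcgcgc
Scp2, chr4:108118548-108118797, minus strand: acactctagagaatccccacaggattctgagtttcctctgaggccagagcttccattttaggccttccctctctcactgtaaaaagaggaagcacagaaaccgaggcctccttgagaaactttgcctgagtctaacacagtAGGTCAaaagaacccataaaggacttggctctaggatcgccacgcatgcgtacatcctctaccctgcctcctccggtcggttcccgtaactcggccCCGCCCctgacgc
Motifs were searched on both strands of the whole window of 300 bases, 250 before and 50 after the start, which 31 of the 37 measured members have. The PPAR element AGGTCANAGGTCA was in 0 of the 31 member windows, in 0.046% of 8690 tested genes with a window and in 0.0481% of all 27025 genes. The core was in 6 member windows (19.4%), those of Acadm, Acadvl, Cat, Cpt1a, Echs1 and Scp2, beside 15.9% of tested genes and 18.1% of all genes. The E-box CACGTG was in 0 member windows, beside 11.2% and 8.09%. The GC box was in 26 member windows (83.9%), beside 60.4% and 38.2%. The core's share among the members was near that of the other genes, and these letter matches say nothing about binding.

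Among the 16 mitochondrial members none passed in any comparison. The median difference was -0.13 in beta6 null against wild type, 0.42 with TGFb1 against beta6 null, where 13 of 16 were above 0, and 0.21 with TGFb1 against wild type. The median of the list on an array was -0.66 ± 0.40 (SD, n = 5) for wild type, -1.18 ± 0.44 for beta6 null and -0.61 ± 0.19 for TGFb1. It was taken over the members with a value, 11 on wild type replicate 2, 13 on beta6 null replicates 1 and 3, and 16 elsewhere. The array medians thus do not all cover the same genes. Wild type arrays ran from -1.27 to -0.18, beta6 null arrays from -1.96 to -0.84 and TGFb1 arrays from -0.76 to -0.32, so the beta6 null arrays were all below the TGFb1 arrays and overlapped wild type through wild type replicate 1. Beta6 null replicate 1, one of the widest arrays, gave the lowest median.

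The carnitine shuttle was measured through 3 genes. Cpt1a, the carnitine palmitoyltransferase of the outer membrane and the controlled step of entry, had ratios of 0.35, 0.49, 1.36, 0.16 and 0.80 in wild type. In beta6 null Cpt1a read -0.19, -0.99, 0.33, -0.13 and -0.05, and with TGFb1 0.16, 0.44, 0.74, 0.54 and 0.48. In 4 of 5 beta6 null arrays it lay below every array of the other groups, and replicate 3 overlapped both. The difference was -0.84 (SE 0.30, adjusted p = 0.264 by limma) in beta6 null against wild type and 0.68 (SE 0.30, adjusted p = 0.300) with TGFb1 against beta6 null, and exact permutation tests of this gene alone gave an unadjusted p = 0.0159 for both. Cpt2, the inner membrane transferase, averaged -0.46, -1.14 and -0.66 in wild type, beta6 null and TGFb1, in the same order, with adjusted p = 0.438 and 0.521 for the first 2 comparisons by limma. Crat, carnitine acetyltransferase of mitochondria and peroxisomes, had only 3 values in beta6 null and averaged 0.16, 0.27 and -0.42, an order unlike that of the transferases, with no difference that passed.

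The first step of each round is taken by acyl-CoA dehydrogenases of different chain length. Acadvl, for very long chains, averaged 0.34, 0.30 and 0.08 in wild type, beta6 null and TGFb1, and Acads, for short chains, -0.41, -0.40 and -0.03. Acadl, for long chains, averaged -1.65, -1.12 and -0.84. Acadm, for medium chains, averaged -1.98 ± 1.72 (SD, n = 5), -1.60 ± 1.11 and -0.74 ± 0.27. None of the 4 stood lower in beta6 null than in wild type by more than 0.04, and the adjusted p of all of them was at least 0.600 in the first 2 comparisons. The wide SD of Acadm in wild type and beta6 null came with the 2 widest arrays, which read -4.98 and -3.56.

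Electron transfer flavoprotein, which takes electrons from these dehydrogenases, has 2 subunits, Etfa and Etfb. Etfa read -2.45, -3.24, -1.10, -2.07 and -1.22 in wild type, and -1.83, -2.35, -2.19, -3.06 and -2.0 in beta6 null. With TGFb1 Etfa read -0.56, -1.19, -0.89, -1.05 and -1.46. Every TGFb1 array lay above every beta6 null array, while wild type overlapped both. The difference with TGFb1 against beta6 null was 1.26 (SE 0.39, adjusted p = 0.152 by limma), with p = 0.00794 in the exact permutation test of this gene alone, the smallest that 5 against 5 arrays allow. Etfb read -1.08, -5.54, -0.51, -1.55 and -0.61 in wild type, -4.84, -1.48, -1.25, -1.57 and -1.39 in beta6 null, and 0.17, -0.82, -0.02, -0.14 and -0.75 with TGFb1. Its TGFb1 arrays also lay above all beta6 null arrays, with a difference of 1.80 (SE 0.88, adjusted p = 0.357). The readings of -5.54 and -4.84 come from the 2 widest arrays. Etfdh, the dehydrogenase that passes the electrons on to ubiquinone, averaged -1.21, -1.13 and -1.02, so it did not share the separation of the 2 subunits.

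The later steps are taken by hydratases, isomerases, dehydrogenases and thiolases. Echs1, the short-chain enoyl-CoA hydratase, read -2.22, -2.05, -1.37, -1.76 and -1.28 in wild type and -1.96, -1.48, -2.21, -1.62 and -0.99 in beta6 null. With TGFb1 Echs1 read -0.55, -1.06, -0.85, -0.74 and -1.05, above every wild type array and above 4 of 5 beta6 null arrays. Its difference was 0.89 (SE 0.28) with TGFb1 against wild type and 0.80 (SE 0.28) against beta6 null, with adjusted p = 0.757 and 0.198 by limma. Hadhb, the thiolase subunit of the trifunctional protein, read -1.55, -1.04, -0.92, -2.03 and -0.62 in wild type, -1.98, -1.08, -1.04, -1.73 and -1.56 in beta6 null, and -0.34, -0.67, -0.67, -0.80 and -1.09 with TGFb1. With TGFb1 only replicate 5, at -1.09, fell within the range of beta6 null, and the difference of 0.76 (SE 0.31) had an adjusted p = 0.254.

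Acaa2, the mitochondrial thiolase, had no value on wild type replicate 2 and read -1.40, -1.11, -1.12 and -0.90 on the other wild type arrays. In beta6 null Acaa2 read -4.38, -3.06, -1.51, -2.13 and -1.30, and with TGFb1 -0.56, -1.85, -0.77, -1.24 and -1.26. The wild type and TGFb1 means were both -1.13, and the beta6 null mean was -2.48 ± 1.27 (SD, n = 5). The difference was -1.35 (SE 0.53, adjusted p = 0.340 by limma) in beta6 null against wild type and 1.34 (SE 0.50, adjusted p = 0.224) with TGFb1 against beta6 null. The groups overlapped in both comparisons. Eci1, an enoyl-CoA isomerase, Decr1, the dienoyl-CoA reductase needed for unsaturated fatty acids, and Hadh, the 3-hydroxyacyl-CoA dehydrogenase, had no difference beyond 0.58 in either direction in the 3 comparisons, and none passed.

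**Figure D2:**
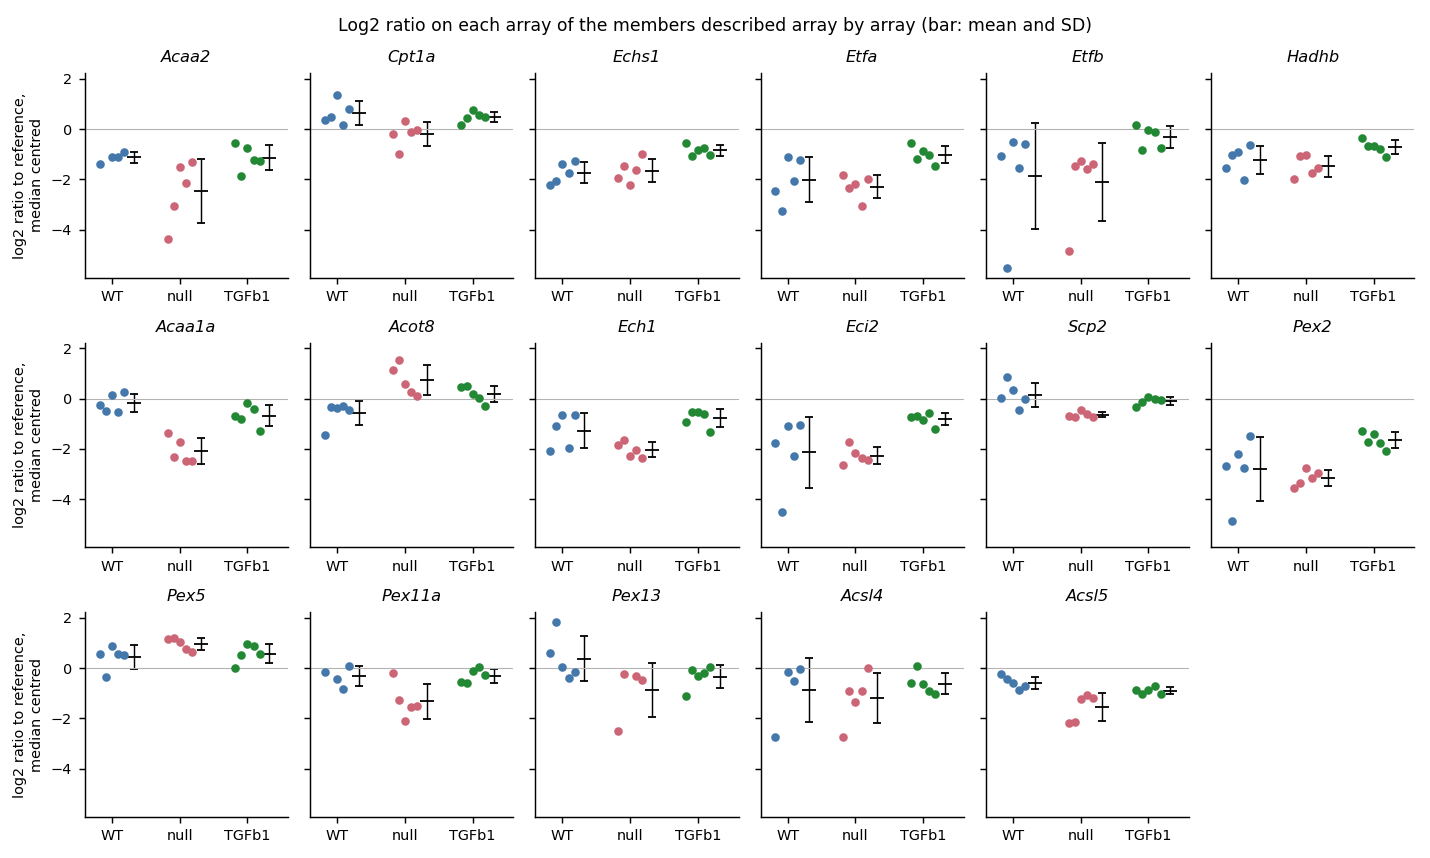
Median-centred log2 ratio (y axis) on each array, as points, of the 17 members given array by array, with bars for the group mean and SD. WT is wild type, null is beta6 null and TGFb1 is beta6 null with TGFb1, with up to 5 arrays a group; the beta6 null arrays of Acaa1a, at most -1.38, and of Acsl5, at most -1.05, lie below every other array of their gene.

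The 19 peroxisomal members were 10 enzymes and 9 peroxins, and over all of them the median difference was -0.13 in beta6 null against wild type, 0.40 with TGFb1 against beta6 null and 0.02 with TGFb1 against wild type. The 10 enzymes had medians of -0.41, 0.47 and -0.01 in these comparisons, and the 9 peroxins 0.14, -0.01 and 0.14. The median of the enzymes on an array ran from -0.85 to -0.15 in wild type, from -1.18 to -0.87 in beta6 null and from -0.71 to -0.25 with TGFb1, so all 5 beta6 null arrays were below all other arrays. The array means were -0.52 ± 0.29 (SD, n = 5), -1.03 ± 0.14 and -0.51 ± 0.22. The peroxins gave -0.31 ± 0.60, -0.33 ± 0.06 and -0.27 ± 0.17, with groups that overlapped. Over all 19 peroxisomal members the array medians overlapped too. They ran from -0.78 to -0.14 in wild type, from -0.705 to -0.45 in beta6 null and from -0.56 to -0.205 with TGFb1. Missing values left 8 to 10 enzymes and 6 to 9 peroxins on an array, fewest on wild type replicate 2. The difference between enzymes and peroxins was not tested.

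**Figure D3:**
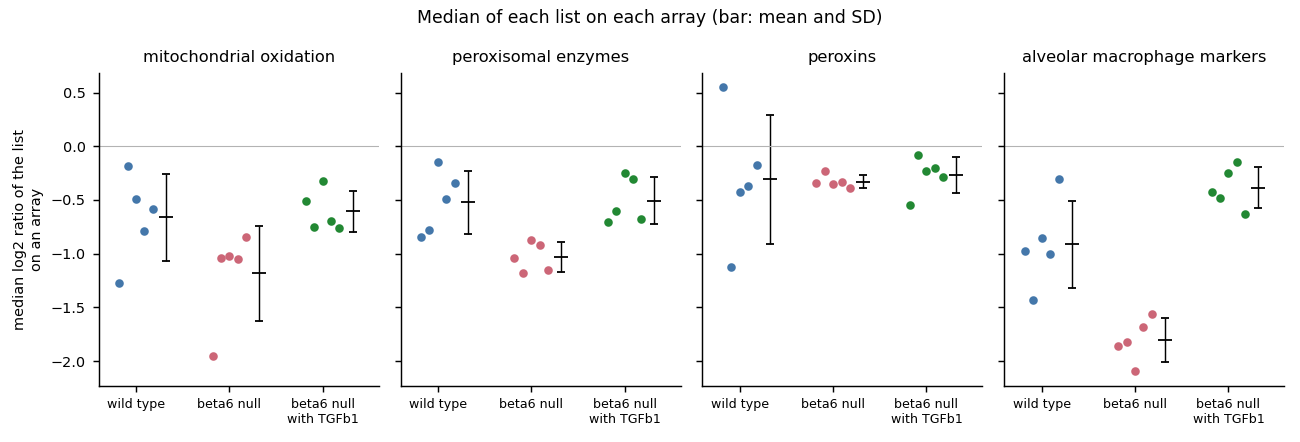
Median log2 ratio of each list (y axis) on each of 15 arrays, as points, with bars for the mean and SD of the 5 arrays of a group. The beta6 null arrays of the peroxisomal enzymes, from -1.18 to -0.87, lie below all wild type and TGFb1 arrays, and those of the peroxins, from -0.38 to -0.23, lie within the wild type range.

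Acaa1a is the thiolase that ends a round of peroxisomal oxidation. It read -0.27, -0.48, 0.15, -0.53 and 0.26 in wild type, -1.38, -2.31, -1.72, -2.49 and -2.49 in beta6 null, and -0.70, -0.80, -0.19, -0.40 and -1.30 with TGFb1. All 5 beta6 null arrays lay below all 10 others, while the wild type and TGFb1 arrays overlapped. Acaa1a fell by 1.91 (SE 0.31, adjusted p = 0.00626 by limma) in beta6 null against wild type, which is 3.75-fold lower if the base is 2. Its level with TGFb1 was 1.40 (SE 0.31) above beta6 null, 2.64-fold on the same reading, with an adjusted p = 0.0521 that just missed the threshold. Exact permutation tests gave p = 0.00794 for both, and the level with TGFb1 stood 0.50 (SE 0.31) below wild type, adjusted p = 0.820. The fall kept its sign but lost its call with quantile normalisation (-1.90, adjusted p = 0.0909), with the arrays scaled to equal spread (-1.81, adjusted p = 0.105) and with Xist added to the model (-1.66, adjusted p = 0.467), a setting in which 0 of all features tested were called in either direction. Acaa1b, a near-identical mouse copy of the gene, had no probe, so whether its RNA is read by this probe is unknown.

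Scp2, whose product carries sterols and, in a longer form, is the thiolase of branched chains, read 0.02, 0.84, 0.35, -0.46 and 0.00 in wild type. In beta6 null Scp2 read -0.70, -0.72, -0.45, -0.60 and -0.71, and with TGFb1 -0.34, -0.15, 0.04, -0.01 and -0.04. The 5 beta6 null arrays had an SD of 0.11 and lay below all TGFb1 arrays, and 1 wild type array, at -0.46, reached into their range. The difference was -0.79 (SE 0.25, adjusted p = 0.205 by limma) in beta6 null against wild type and 0.54 (SE 0.25, adjusted p = 0.330) with TGFb1 against beta6 null.

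Ech1 and Eci2, an isomerase of dienoyl-CoA and one of enoyl-CoA, are found in peroxisomes and mitochondria. Ech1 read -2.08, -1.08, -0.64, -1.95 and -0.65 in wild type, -1.85, -1.64, -2.27, -2.03 and -2.37 in beta6 null, and -0.95, -0.52, -0.53, -0.61 and -1.33 with TGFb1. Eci2 read -1.76, -4.50, -1.09, -2.29 and -1.04 in wild type, -2.64, -1.74, -2.15, -2.38 and -2.43 in beta6 null, and -0.72, -0.69, -0.83, -0.57 and -1.21 with TGFb1. For both genes every TGFb1 array was above every beta6 null array, and wild type overlapped beta6 null. Between TGFb1 and beta6 null the difference was 1.24 (SE 0.33, adjusted p = 0.0938 by limma) for Ech1 and 1.46 (SE 0.52, adjusted p = 0.201) for Eci2.

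Acot8, a thioesterase that frees fatty acids from coenzyme A inside the peroxisome, went the other way. It read -1.43, -0.34, -0.37, -0.29 and -0.46 in wild type, 1.15, 1.52, 0.59, 0.27 and 0.09 in beta6 null, and 0.46, 0.52, 0.19, 0.03 and -0.29 with TGFb1. All beta6 null arrays were above all wild type arrays, and the TGFb1 arrays overlapped beta6 null and, from -0.29 upwards, lay just above wild type. The difference in beta6 null against wild type was 1.30 (SE 0.33, adjusted p = 0.0903 by limma), which did not pass, and 0.76 (SE 0.33, adjusted p = 0.787) with TGFb1 against wild type.

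The other enzymes did not pass in any comparison. Hsd17b4, the bifunctional enzyme of branched and very long chains, averaged -1.85, -2.22 and -1.82 in wild type, beta6 null and TGFb1, and Cat, catalase, -1.34, -1.80 and -1.46. Acox3, an oxidase of branched chains, averaged 0.29, -0.34 and 0.31. These 3 had their lowest mean in beta6 null, with differences inside the spread of the arrays. Ehhadh, the other bifunctional enzyme, averaged -0.09, -0.04 and -0.35 and Decr2, the peroxisomal dienoyl-CoA reductase, 0.11, 0.25 and 0.07, without that order.

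None of the 9 peroxins passed. Pex2, of the ubiquitin ligase complex in the peroxisomal membrane, read -2.68, -4.87, -2.20, -2.76 and -1.47 in wild type, -3.56, -3.35, -2.75, -3.17 and -2.97 in beta6 null, and -1.28, -1.72, -1.42, -1.76 and -2.08 with TGFb1. Its TGFb1 arrays were all above the beta6 null arrays, and the difference was 1.51 (SE 0.48, adjusted p = 0.156 by limma). Pex11a, which takes part in peroxisome division, had no value on wild type replicate 2 and read -0.14, -0.43, -0.83 and 0.10 on the other 4. In beta6 null Pex11a read -0.20, -1.26, -2.10, -1.55 and -1.51, and with TGFb1 -0.54, -0.60, -0.12, 0.05 and -0.29. Without replicate 1 its beta6 null arrays were below all others. Its difference was -1.0 (SE 0.36, adjusted p = 0.283) in beta6 null against wild type and 1.02 (SE 0.34, adjusted p = 0.175) with TGFb1 against beta6 null, and without the 2 widest arrays both passed (-1.28, adjusted p = 0.0317, and 1.31, adjusted p = 0.0223).

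Pex13, of the docking complex for import, read 0.59, 1.85, 0.05, -0.41 and -0.17 in wild type, -2.49, -0.23, -0.30 and -0.47 in beta6 null, without replicate 3, and -1.11, -0.08, -0.33, -0.20 and 0.04 with TGFb1. Apart from the -2.49 of the wide replicate 1, its beta6 null values lay among those of the other groups, and the difference of -1.25 (SE 0.54) against wild type had an adjusted p = 0.380. Pex5, the receptor that brings enzymes with the common targeting signal to the peroxisome, read 0.55, -0.36, 0.88, 0.58 and 0.53 in wild type, 1.15, 1.18, 1.02, 0.74 and 0.65 in beta6 null, and -0.01, 0.52, 0.96, 0.88 and 0.55 with TGFb1. Its groups overlapped, and beta6 null was 0.51 (SE 0.28, adjusted p = 0.503) above wild type, a direction opposite to that of the enzymes' median. Pex7, the receptor for the other targeting signal, averaged -2.27, -2.13 and -0.72 in wild type, beta6 null and TGFb1, and its TGFb1 arrays, from -1.09 to -0.42, were all above the beta6 null arrays. The difference of 1.41 (SE 1.10) had an adjusted p = 0.582, and the 2 widest arrays read -7.44 and -4.84.

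No difference passed for the remaining peroxins. Pex19, a chaperone of membrane proteins, averaged 1.20, 1.40 and 1.35, and its partner Pex3 -0.74, -0.45 and -0.47. Pex14, of the docking complex, averaged 0.52, 0.48 and 0.05, and Pex6, an ATPase that recycles the import receptor, -0.88, -0.15 and -0.94 on 4, 3 and 4 arrays, with SDs from 0.98 to 1.97. The smallest adjusted p of these 4 in any comparison was 0.523, for Pex14 with TGFb1 against beta6 null.

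Acyl-CoA synthetases join fatty acids to coenzyme A before oxidation or storage. Acsl5 read -0.25, -0.45, -0.60, -0.88 and -0.72 in wild type, -2.19, -2.14, -1.22, -1.05 and -1.20 in beta6 null, and -0.88, -1.02, -0.86, -0.72 and -1.03 with TGFb1. All beta6 null arrays were below all arrays of the other groups. The difference was -0.98 (SE 0.27, adjusted p = 0.135 by limma) in beta6 null against wild type and 0.66 (SE 0.27, adjusted p = 0.272) with TGFb1 against beta6 null, with exact permutation p = 0.00794 for both. Acsl4, which prefers polyunsaturated fatty acids, had no value on wild type replicate 2 and read -2.73, -0.16, -0.52 and -0.03 on the other 4. In beta6 null Acsl4 read -2.74, -0.92, -1.36, -0.93 and 0.01, and with TGFb1 -0.59, 0.07, -0.64, -0.92 and -1.02. Its groups overlapped fully, and no difference passed (adjusted p = 0.869, 0.685 and 0.960).

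The exact permutation tests were run for the 17 members given array by array in all 3 comparisons, 51 tests in all, and their p-values are not adjusted. The members given array by array were picked by how much they varied over the groups, so the tests describe single genes and do not weigh the list.

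The differences with TGFb1 against beta6 null were also set out by the level in wild type, a breakdown chosen after the values were seen. Of 14 members with a wild type mean below -1, 7 (50%) had a higher level with TGFb1 against beta6 null at an unadjusted p under 0.05, with a median difference of 1.06. Of all 1694 features at that level 24.3% were, with a median of 0.58. Among 11 members between -1 and 0 the median was 0.37 and 3 (27.3%) were higher, beside 0.26 and 14% of 5683 features. Among 12 members at 0 or above the median was -0.11 and 2 (16.7%) were higher, beside -0.08 and 4.56% of 5896 features. In this comparison features low in wild type had larger positive differences, members or not. In beta6 null against wild type the members' medians from the lowest level to the highest were -0.25, 0.02 and -0.14, beside 0.22, -0.05 and -0.09 over all features, without such an order among the members. This difference subtracts the same wild type mean that set the levels. Part of the order over all features is therefore built in, and the members' medians cannot be weighed against it.

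**Figure D4:**
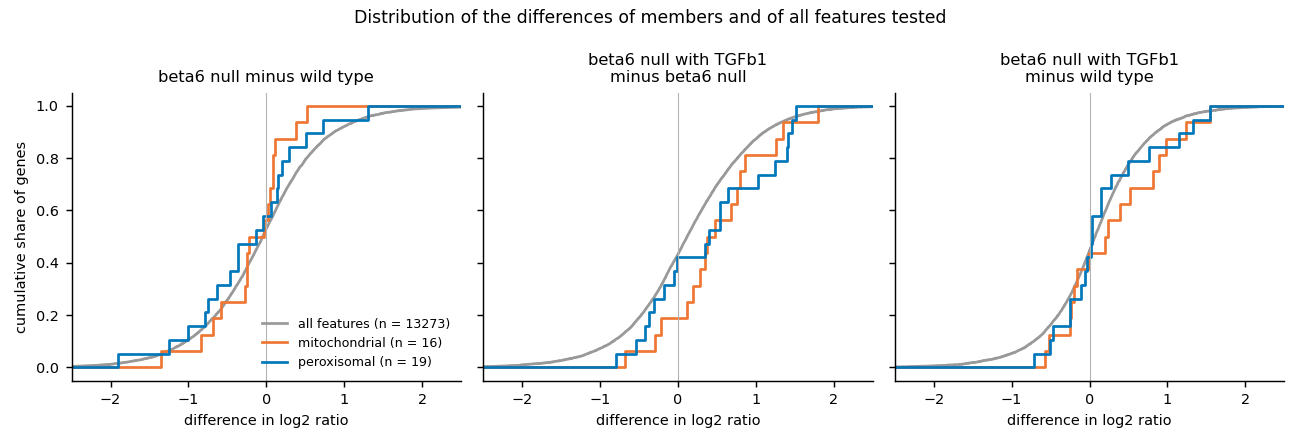
Cumulative share of genes (y axis) by fitted difference in log2 ratio (x axis) in the 3 comparisons. Curves are drawn for the 16 mitochondrial members, the 19 peroxisomal members and all 13273 features tested, without the 2 acyl-CoA synthetases. With TGFb1 against beta6 null the medians are 0.42 (mitochondrial), 0.40 (peroxisomal) and 0.12 (all features). With TGFb1 against wild type they are 0.21, 0.02 and 0.07 in that order.

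Other genes of the pathway were taken from lists that share no gene with the members. Of 21 further genes of mitochondrial fatty acid, branched-chain and ketone metabolism that were tested, 0 passed in any comparison. At an unadjusted p under 0.05 these 21 gave 0 higher and 1 lower in beta6 null against wild type, and 3 higher and 0 lower with TGFb1 against beta6 null, with medians of 0.03 and 0.22. Of 20 further peroxisomal genes tested 0 passed, with 0 higher and 2 lower in the first comparison, 3 higher and 0 lower in the second, and medians of -0.48 and 0.45. The medians of the further peroxisomal genes had the signs of those of the member enzymes, and over all features the medians were -0.05 and 0.12. Unlike those of the member enzymes, their array medians overlapped: -0.86 to -0.29 in wild type and -1.63 to -0.24 in beta6 null. With TGFb1 against wild type their median was 0.34, beside -0.01 for the member enzymes. In beta6 null against wild type the further mitochondrial genes, at 0.03, differed in sign from the mitochondrial members, at -0.13. Of 5 further acyl-CoA synthetases tested 0 passed at either threshold.

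Among 13 regulators tested, Pparg and Nrip1 passed. Pparg, the nuclear receptor named above, read -2.38, -3.11, -1.63, -2.70 and -1.46 in wild type, -4.26, -3.33, -3.02, -3.27 and -3.14 in beta6 null, and -1.65, -1.77, -1.18, -1.23 and -1.97 with TGFb1. Every TGFb1 array was above every beta6 null array, and Pparg was 1.84 (SE 0.35, adjusted p = 0.0332 by limma) higher with TGFb1. In beta6 null against wild type it was lower by a difference of -1.14 (SE 0.35, adjusted p = 0.191), which did not pass. Nrip1, a corepressor of nuclear receptors, was lower in beta6 null (-1.25, SE 0.24, adjusted p = 0.0216) and higher with TGFb1 than in beta6 null (1.12, SE 0.24, adjusted p = 0.0450), as the mean of 2 probes that disagreed. One probe averaged 0.52, -2.04 and -0.01 in wild type, beta6 null and TGFb1, and the other 1.04, 1.11 and 1.31.

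The other PPAR receptors and the coactivators did not pass. Ppara, the receptor that drives fatty acid oxidation in liver, averaged 0.66, 0.91 and 0.94, and Ppard -0.53, -0.62 and -0.05. Ppargc1a and Ppargc1b, coactivators of mitochondrial genes, averaged -0.03, 0.39 and -0.07 and -0.20, -0.45 and 0.29. Of 11 known PPAR target genes tested, 0 passed in any comparison. Their differences ran in both directions: 7 were above 0 and 4 below in beta6 null against wild type, with a median of 0.35, and 6 above and 5 below with TGFb1 against beta6 null, with a median of 0.24. At an unadjusted p under 0.05, 2 were higher and 2 lower in the first comparison and 2 higher and 1 lower in the second. Their array medians averaged -0.62 ± 0.47 (SD, n = 5) for wild type, 0.01 ± 0.27 for beta6 null and -0.29 ± 0.27 for TGFb1. An array held values of 9 to 11 of these genes. From beta6 null to TGFb1 the array medians fell, while the median fitted difference was above 0, so the 2 summaries differ in sign. The relation of these genes to Pparg was not tested.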

How the data were processed

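Alveolar macrophage total RNA of 15 samples was measured on 2-colour arrays, and groups were taken from the labels. The deposited table holds 1 log2 ratio per probe and array, read as base 2 because values reach 9.49. How the authors obtained these ratios (dyes, background correction, normalization) is not given in the sources read. The array medians as deposited lay between -0.047 and 0.029, and 742 to 5610 of 17225 probes of an array had no value. The number of arrays limits the precision.

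After 30 control spots were left out, 13972 probes carried 1 gene symbol in the platform annotation, 13 several and 3210 none, and 13869 symbols were updated through their Entrez IDs from RefSeq. Each array was centred on its median, probes of a gene were averaged, and features measured on 3 arrays or more in each group were tested. limma 3.58.1 (lmFit, eBayes) in R 4.3.3 was fitted to all 15 arrays with 3 group means, with Benjamini-Hochberg adjustment over all 13273 features and a threshold of 0.05. Errors of differences are the fit's moderated standard errors, and a missing value drops that array for that feature. Exact two-sided permutation tests used SciPy 1.17.1. Values of every array are given for members that passed and for those with the smallest moderated F p in each list, 17 in all. Promoter windows are RefSeq's, and targeting signals of the proteins were not analysed here.

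A simulation drew independent normal noise with the spread of each feature and array and with the missing values of these data. Correlation between genes and values far outside a normal spread were not simulated, so its shares may not hold for the data. Of 50 genes each changed by 1, 2, 3 and 4 log2 units, 8%, 48%, 60% and 76% were recovered in beta6 null against wild type, with 8 unchanged genes called. For TGFb1 against beta6 null the shares were 6%, 52%, 54% and 78%, and 5 unchanged genes were called. Only the beta6 null arrays were changed, so both comparisons read the same changed genes and arrays and are not separate estimates. Nothing was changed between TGFb1 and wild type in the simulation, and 0 genes were called there. The members and lists were chosen with earlier results of these data known.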

Additional observations from a re-analysis of the deposited data

Results flagged for a closer look

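In groups of 4 or 5 arrays, a lowest or highest value far from the others was looked for among the 37 members, in 108 groups. The limit used would flag about 1 in 20 groups of independent normal values of equal spread. These arrays differ in spread and are shared by all genes, so that rate does not apply here. In all 14 were found, on 5 arrays. Wild type replicate 2, one of the 2 widest arrays, held 7 of them: Acadm at -4.98, Etfb at -5.54, Decr2 at 1.0, Ehhadh at -1.51, Pex3 at -1.88, Pex5 at -0.36 and Pex7 at -7.44. Beta6 null replicate 1, the other of these arrays, held 4, with Acadm at -3.56, Etfb at -4.84, Pex7 at -4.84 and Pex13 at -2.49. The same genes, Acadm, Etfb and Pex7, stood far below their group on both of these arrays. The other 3 values were Decr1 at -0.71 in beta6 null replicate 3, Acot8 at -1.43 in wild type replicate 1 and Pex3 at -1.05 in replicate 2 of the TGFb1 group. Of these genes none passed the test in any comparison. The other wild type values of Acot8 ran from -0.46 to -0.29, so its difference from beta6 null does not rest on that array alone.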

How the results depend on the processing

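No paired analysis was possible because the labels give no replicate numbers that pair samples across groups. The last digit of the sample titles, 1 or 2, served as a block and as a random block without moving any of the counts of members or list medians past the limits used here. The fall of Acaa1a kept its sign in all 28 alternatives, while list medians near 0 changed theirs; Pparg and Nrip1 were not rerun under them. The fall of Acaa1a was called in 25 of 28 alternatives (adjusted p from 0.00017 to 0.467), with 0 members lower under quantile normalization, arrays scaled to equal spread and Xist as a covariate, and with 2 (Pex11a added) under array weights and without the 2 widest arrays. With values on all 15 arrays 1 member, Acot8 (adjusted p = 0.0412), was higher in beta6 null. With TGFb1 against beta6 null the count of members higher, 0 as reported, was 1 without centring and with every probe by itself, 2 with values on all 15 arrays and with only the 2 groups, 5 without the 2 widest arrays and 6 with array weights. Leaving out 1 array gave 0 to 3 (3 without wild type replicate 2, 2 without beta6 null replicate 1, 1 without TGFb1 replicate 5). Acaa1a was among the genes called in 8 of 28 alternatives, with adjusted p from 0.00265 to 0.574. Except with Xist, the shares of all features called under the alternatives are not given here, so the counts of members were not weighed against them. At an unadjusted p under 0.05, the 1 higher and 8 lower in beta6 null became 2 and 5 under quantile normalization and under equal spread, 0 and 2 with Xist, and 5 lower with only the 2 groups. The 12 higher with TGFb1 became 5 under quantile normalization and under equal spread and 3 with Xist. The 5 higher with TGFb1 against wild type became 3 with array weights and 2 to 6 without 1 array (3 without wild type replicate 1 or 2 or TGFb1 replicate 3, 2 without TGFb1 replicate 1), and the 0 lower became 1 with array weights and without the 2 widest arrays. The mitochondrial medians were -0.52 and 0.90 with Xist in the first 2 comparisons, and 0.70 with values on all 15 arrays in the third. Leaving out 1 array gave -0.29 (without beta6 null replicate 2) to 0.00807 (without wild type replicate 5) in the first, 0.35 to 0.61 in the second and -0.0827 (without wild type replicate 1) to 0.34 in the third. The peroxisomal median in beta6 null against wild type was 0.0544 with values on all 15 arrays and -0.46 to -0.0339 without 1 array, the former without wild type replicate 2. With TGFb1 against beta6 null it was 0.0873 without the 2 widest arrays, 0.17 with Ech1 and Eci2 counted as mitochondrial and Crat as peroxisomal, and 0.0873 to 0.53 without 1 array, the lowest without beta6 null replicate 1. The causes were not tested. Signal over background is not in the table, so how far dim spots limit the values is unknown.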
